A study of Mus musculus with 12 samples.

Results

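The passage from the 1-cell to the 2-cell stage was examined in wild-type (WT) mouse embryos by comparing 2 Smart-seq2 libraries of 2-cell embryos with 2 libraries of 1-cell embryos across 11298 genes. These 4 libraries were chosen by their labels from the 12 libraries of the series, and every gene with a complete entry in the deposited table was kept. Each library was made from 10 embryos or oocytes of the C57BL/6 strain. The labels give WT as the wild type of Pabpn1l, a gene for a poly(A)-binding protein of the oocyte and early embryo. Knockout (KO) embryos, labelled only as lacking Pabpn1l, were available at the same stages in 2 libraries each, and WT oocytes at the germinal vesicle (GV) stage, the immature oocyte before meiosis resumes, in 2 libraries. No treatment was given to any group. Oocytes were taken from the animal and embryos were grown in KSOM culture medium. Whether the KO describes the mother, the embryo or both is not given, nor are the ages of the mice, the hours of collection or whether replicate libraries came from different animals. The p-values therefore measure the spread between these libraries, which may be technical.

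The newly fertilized mouse embryo relies on messenger RNA stored by the oocyte, because its own genome is nearly silent at first. Stored transcripts lose their poly(A) tails and are degraded in waves, while the embryonic genome is activated in a minor wave at the 1-cell stage and a major wave at the 2-cell stage. Growth-related transcripts, including those for ribosome production, and a set of genes expressed briefly in the 2-cell embryo are known products of the major wave. Complementary DNA was primed here with oligo-dT, so the length of a transcript's poly(A) tail can influence how much of it is captured, and a gain of signal does not by itself show new transcription.

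The deposited unit was FPKM, fragments scaled by transcript length and by the mapped fragments of the library, further multiplied by the authors with 1 number per embryo library, whose basis is not given in the sources used here. ERCC spike-in RNA was part of the lysis mix, per the labels, and whether the number was derived from it is not stated, so the deposited scale cannot be read as RNA per embryo with certainty. This number was 0.269 and 0.212 in the 1-cell libraries and 0.116 and 0.123 in the 2-cell libraries, a ratio of 2.00 between the stages. In both WT GV libraries it was 1, so comparisons of deposited levels between GV oocytes and embryos depend on it. The summed values of all genes were 127008 and 98843 FPKM in the 1-cell libraries and 53555 and 59307 FPKM in the 2-cell libraries. No value was below 1 FPKM, which is called the floor, and 4588 and 4937 genes in the 1-cell libraries and 5562 and 5121 genes in the 2-cell libraries were at it. A gene at the floor had a level of at most 1 FPKM, so a fold change against it is a lower bound. Replicates that are both at the floor show no spread, which can make the standard error of such a gene small. Replicates correlated at r = 0.990 (1-cell) and r = 0.983 (2-cell) across genes, which are not independent replicates. Among the 4551 genes above the floor throughout the 4 libraries, the median was 1.91-fold lower at the 2-cell stage, a shift of −0.93 on the log2 scale. Changes are therefore given as deposited and also after centring, in which each library was scaled to the same median over those 4551 genes. A centred change is a change relative to this median transcript. Fewer copies of a transcript per embryo and a smaller total of RNA per embryo cannot be told apart from these values.

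The 3 genes used to check the labels separated the stages. Rgs2, a regulator of G-protein signalling stored in the oocyte, measured 215 and 166 FPKM in the 1-cell libraries and 1.23 and 1.18 FPKM in the 2-cell libraries, 158-fold lower on the deposited scale (log2 change after centring −5.68 ± 0.12 SE, limma adjusted p = 8.06e-08). Mt1, which encodes a metal-binding metallothionein, was at the floor in both 1-cell libraries and measured 94.5 and 147 FPKM in the 2-cell libraries, at least 121-fold higher as deposited (log2 change after centring 5.99 ± 0.68 SE, limma adjusted p = 4.55e-04). Pramel7, a PRAME-like gene of the early embryo, was at the floor in both 1-cell libraries and at 7.3 and 9.95 FPKM in the 2-cell libraries (log2 change after centring 2.31 ± 0.09 SE, limma adjusted p = 2.36e-06). For each of the 3 genes the stages did not overlap. Pabpn1l itself measured 16.4 and 12.2 FPKM in the 1-cell libraries and 1.18 and 1 FPKM in the 2-cell libraries and fell on both scales (log2 change after centring −2.08 ± 0.18 SE, limma adjusted p = 1.35e-04). The oocyte identity of the material was also visible in 10 defining maternal transcripts, all above the floor in the 1-cell libraries. Of these, 8 fell after centring and 10 fell as deposited, against 15.4% and 29% of all genes. Markers of other cells were few in the table: cumulus and granulosa cells were represented by 4 genes, of which 2 never left the floor and the other 2 (Esr2 and Cyp19a1) were both above the floor in GV oocytes and fell. Summed over the 4 markers, the 1-cell libraries held 16 and 11.7 FPKM and the 2-cell libraries 4.14 and 4.16 FPKM, where 4 genes at the floor give 4 FPKM. Of 3 sperm markers and 4 blood and immune markers, none was called after centring, and 1 sperm and 3 blood markers never left the floor. The sperm markers summed to 3.71 to 4.56 FPKM in the 1-cell and 3.54 to 3.74 FPKM in the 2-cell libraries, and the blood markers to 5.69 to 6.25 and 4.16 to 4.36 FPKM. Their part in the results was not tested.

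On the deposited scale the fall of transcripts prevailed. By limma with Benjamini-Hochberg adjustment over all 11298 genes, 3274 genes (29% of those tested) fell and 1068 (9.45%) rose, and rises made up 24.6% of the calls. After centring, 1737 genes (15.4%) fell and 2194 (19.4%) rose, and rises made up 55.8% of the calls, against 1704 rises and 2203 falls when the 4 libraries were quantile-normalized and fitted alone. All 1737 genes lower after centring were also lower as deposited. Of the 2194 genes higher after centring, 1049 were also higher as deposited, 1137 were not called as deposited and 8 were lower. Changes of at least 2-fold after centring were found in 940 rising genes (8.32%) and 895 falling genes (7.92%). The scatter of the stage means shows both sets beside the shifted median.

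**Figure D1:**
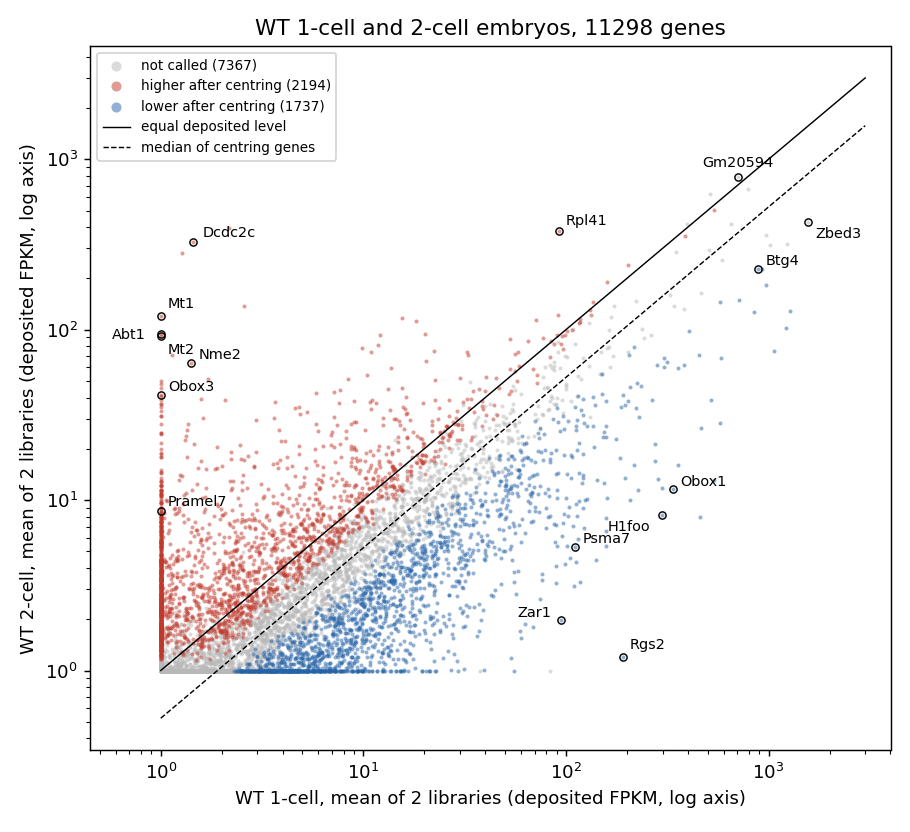
Mean deposited FPKM of 11298 genes in WT 1-cell (x axis) and WT 2-cell embryos (y axis), both on log axes, each the mean of 2 libraries, with colour for the call after centring (2194 higher, 1737 lower, 7367 not called). The solid line marks equal deposited levels and the dashed line the 1.91-fold lower median of the 4551 centring genes; Mt1, Abt1 and Mt2 rise from the floor of 1 FPKM at the left edge, and Rgs2 lies near the floor at the bottom.

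Where the rising genes stood before fertilization differed widely. Of the 940 genes that rose at least 2-fold after centring, 292 were at the floor in both 1-cell libraries, and 87 of these were also at the floor in both GV libraries. A further 98 of the 292 had a mean of at least 5 FPKM in GV oocytes. On the deposited scale, 690 of the 940 had a higher mean in GV oocytes than in 2-cell embryos. The same held for 893 of the 895 genes that fell at least 2-fold. It also held for 7410 of the 8023 genes above the floor in at least 1 of the 4 libraries, a larger share than among the rising genes. A higher mean in GV oocytes than in 1-cell embryos was common to both directions: it was found in 852 of the 940 rising genes, in 893 of the 895 genes that fell at least 2-fold, and in 7657 of the 8023 genes above the floor in at least 1 of the 4 libraries. Of the 895 falling genes, 99 reached the floor in both 2-cell libraries. Among the 264 genes at least 4-fold higher after centring, 174 were higher in the second 2-cell library than in the first after centring, with a median difference of 0.12 on the log2 scale. The count was 65 of the 195 genes at least 4-fold lower, with a median of −0.047. Over all 11298 genes it was 2847, with a median of 0, where genes at the common floor in both libraries count as not higher.

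The genes with the largest rises included Mt1 and Mt2, metallothionein genes of wide expression. Mt2 measured 1 and 1 FPKM in the 1-cell libraries and 71 and 113 FPKM in the 2-cell libraries, at least 91.8-fold higher as deposited (log2 change after centring 5.6 ± 0.44 SE, limma adjusted p = 7.72e-05). Like Mt1 it left the floor, and the second 2-cell library was higher than the first for both genes. Mt4, the other metallothionein gene of the table, measured 28.6 and 19.7 FPKM in the 1-cell libraries and 17.6 and 15.2 FPKM in the 2-cell libraries and was not called on either scale (limma adjusted p = 0.0880 as deposited and 0.265 after centring), except as lower on the deposited scale without the second 1-cell library (adjusted p = 0.0234). Metallothionein genes are classically induced by zinc and other metals through the factor MTF1, which binds metal response elements. The core searched for here was TGCNCNC, where N is any base. It is broad, so a match need not be a metal response element. Since Mt1 and Mt2 moved together, their promoters (250 bases before to 50 bases after the annotated start, RefSeq, build GRCm38.p6) are shown with each match to this core, on either strand, in capitals; Mt1 at chr8:94178839-94179138, plus strand, held 3 matches and Mt2 at chr8:94172368-94172667, plus strand, held 6.
Mt1: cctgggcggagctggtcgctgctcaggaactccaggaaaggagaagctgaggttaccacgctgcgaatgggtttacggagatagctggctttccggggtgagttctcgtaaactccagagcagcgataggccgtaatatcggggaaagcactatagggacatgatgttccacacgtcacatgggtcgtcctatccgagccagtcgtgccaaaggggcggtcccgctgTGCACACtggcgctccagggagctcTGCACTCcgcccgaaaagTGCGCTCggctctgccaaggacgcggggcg
Mt2: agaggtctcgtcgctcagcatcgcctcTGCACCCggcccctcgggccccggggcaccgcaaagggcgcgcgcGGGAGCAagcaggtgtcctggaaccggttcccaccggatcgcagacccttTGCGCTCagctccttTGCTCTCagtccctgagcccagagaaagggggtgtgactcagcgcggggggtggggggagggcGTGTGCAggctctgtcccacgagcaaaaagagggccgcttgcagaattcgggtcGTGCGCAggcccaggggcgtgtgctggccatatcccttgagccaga
The same core occurred in 50.4% of 27020 RefSeq promoters of this length and in 59.1% of the promoters of genes above the floor in at least 1 of the 4 libraries, so a match describes the letters only.

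The other leading rises included the following genes. Abt1, which encodes an activator of basal transcription that also acts in small ribosomal subunit assembly, measured 1 and 1 FPKM in the 1-cell libraries and 74.6 and 115 FPKM in the 2-cell libraries (log2 change after centring 5.65 ± 0.48 SE, limma adjusted p = 1.15e-04), after 9.65 and 9.63 FPKM in GV oocytes. Nme2, a nucleoside diphosphate kinase, measured 1.83 and 1 FPKM in the 1-cell libraries and 58.2 and 69.8 FPKM in the 2-cell libraries (log2 change after centring 5.11 ± 0.14 SE, limma adjusted p = 4.10e-07). Gcsh, the H protein of the mitochondrial glycine cleavage system, was at the floor in both 1-cell libraries and at 42.8 and 53.2 FPKM in the 2-cell libraries (log2 change after centring 4.7 ± 0.19 SE, limma adjusted p = 3.07e-06). Gm11517, a gene known only by its model name, went from the floor to 41.7 and 58.9 FPKM and was at the floor in both GV libraries (log2 change after centring 4.75 ± 0.14 SE, limma adjusted p = 6.90e-07). The rule that named these genes took only genes whose stages did not overlap, so their lack of overlap was set in advance. D17Ertd648e, another gene of unknown role, went from 2.77 and 2.4 to 112 and 162 FPKM (log2 change after centring 6.03 ± 0.72 SE, limma adjusted p = 5.93e-04). Gm9846 rose from 1.28 and 1 to 53.3 and 89.2 FPKM, but it is a retrocopy of the ribosomal protein gene Rps27 (Rps27rt in RefSeq), and reads of the 2 copies cannot be told apart with confidence.

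The 3 largest centred changes of all belonged to genes that share sequence. 2310039L15Rik measured 2.08 and 2.28 FPKM in the 1-cell libraries and 270.3 and 516 FPKM in the 2-cell libraries (log2 change after centring 7.58 ± 0.75 SE, limma adjusted p = 2.39e-04), Dcdc2c 1.37 and 1.53 FPKM in the 1-cell libraries and 223 and 427 FPKM in the 2-cell libraries (log2 change after centring 7.38 ± 0.76 SE, limma adjusted p = 2.80e-04), and Gm7102 1.03 and 1.54 FPKM in the 1-cell libraries and 191 and 373 FPKM in the 2-cell libraries (log2 change after centring 7.17 ± 0.72 SE, limma adjusted p = 2.49e-04). In the GENCODE M21 transcripts of GRCm38, Dcdc2c and Gm7102 shared a stretch of 491 bases at 97.1% identity, and 2310039L15Rik shared 185 bases with each at 93.0% and 93.5%. A stretch of at least 100 bases at 90% identity or more was found in transcripts of 167 annotated genes, 36 of which were in the table. Of these 36 genes, 14 rose and 9 fell after centring, against 19.4% and 15.4% of all genes, with a median change of 0.06. The values of the 3 genes are thus uncertain, because the counting could assign reads of one copy to another, and whether 1, 2 or all of them rose cannot be told from the table. Snrpc, named in later paragraphs, was 1 of the 36 genes, with 108 bases of the stretch. Its values may hold reads of other copies too, which was not tested.

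**Figure D2:**
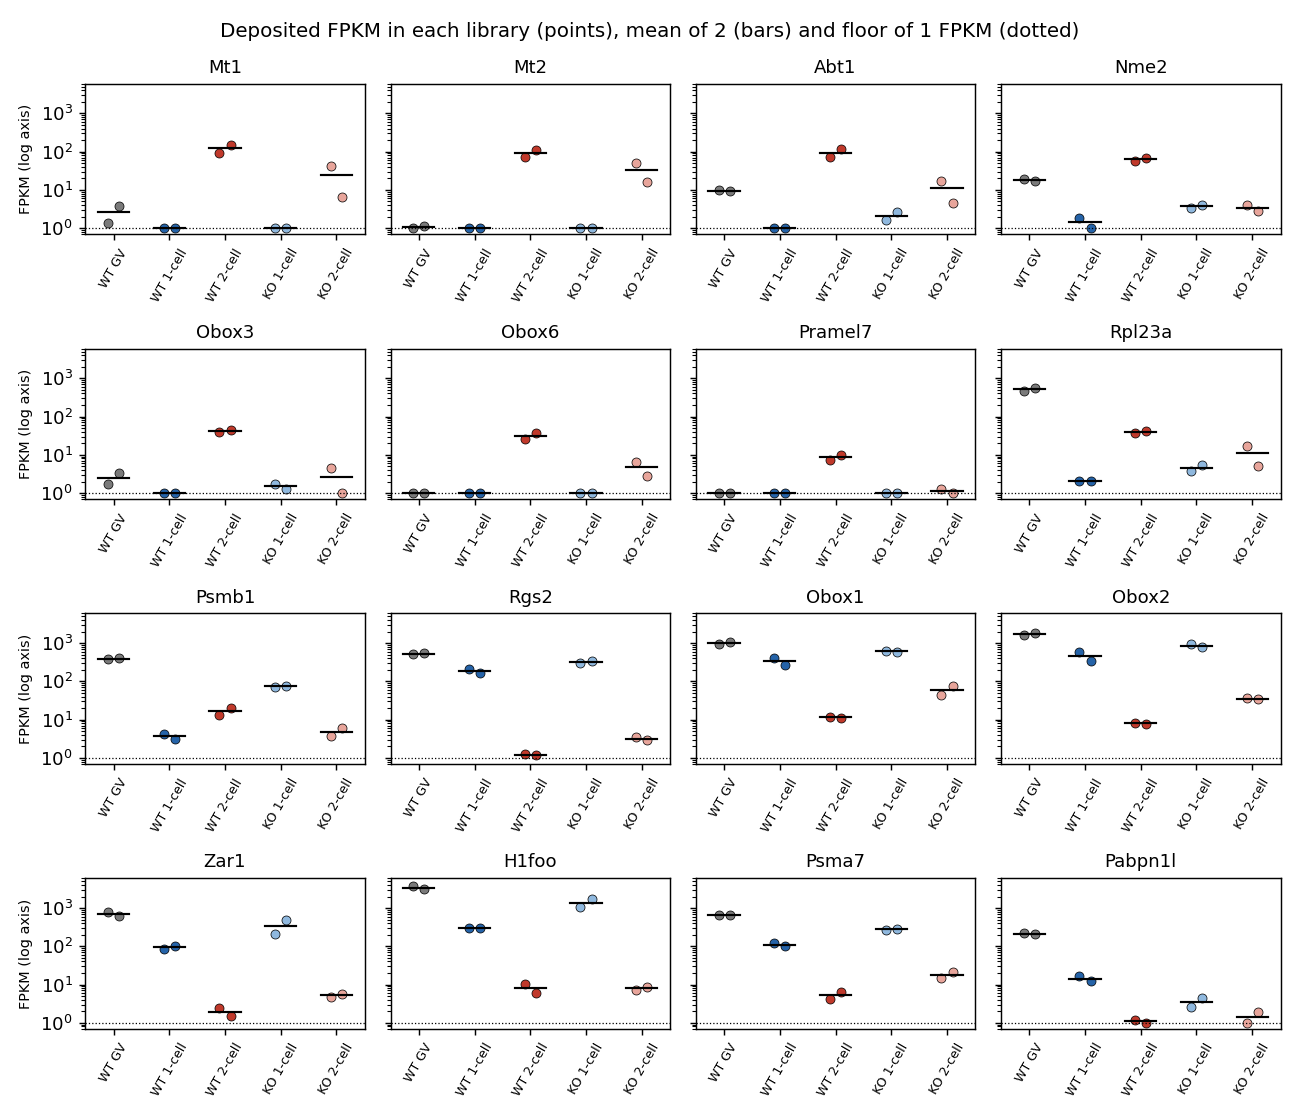
Deposited FPKM on log axes in each library (points) of WT GV oocytes, WT 1-cell, WT 2-cell, KO 1-cell and KO 2-cell embryos for 16 genes, with bars at the mean of 2 libraries and a dotted line at the floor of 1 FPKM. Mt1, Mt2 and Abt1 lie at the floor in both WT 1-cell libraries and at 71 FPKM or more in both WT 2-cell libraries, and Rgs2 falls from 166 FPKM or more to 1.23 FPKM or less.

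Genes known for transient expression at the 2-cell stage were represented by 40 members, and 19 rose while 2 fell after centring, with a median log2 change of 0.42 against 0 over all genes. The counts were 19 and 6 as deposited, with 3 falls without the first 1-cell or the first 2-cell library. Shares over all genes were 19.4% higher and 15.4% lower after centring, and 9.45% and 29% as deposited. With only genes of at least 5 FPKM on average kept, 7 members were tested and 3 were called higher. Gm4850 had the largest rise of the list, from 1 and 1 to 37.9 and 35.5 FPKM (log2 change after centring 4.33 ± 0.35 SE, limma adjusted p = 9.60e-05), and was at 1 and 1.03 FPKM in GV oocytes. Tmem92, a transmembrane protein gene, rose from the floor to 7.34 and 7.46 FPKM (centred log2 change 2.12). Fbxo15, an F-box gene of early embryos, was present already at 6.53 and 4.07 FPKM in the 1-cell libraries and reached 27.9 and 37.8 FPKM (log2 change after centring 3.27 ± 0.22 SE, limma adjusted p = 3.89e-05). In contrast, Pramef12 fell from 29.4 and 28.4 to 2.89 and 2.56 FPKM and Klf17, a Krüppel-like transcription factor, from 88 and 70.4 to 18.5 and 20.9 FPKM (centred log2 changes −2.2 and −1.04). Both were abundant in GV oocytes, at 72.1 and 69.3 and at 189.8 and 159 FPKM. Lineage and pluripotency regulators gave 12 rises and 3 falls among 28 members after centring (10 and 6 as deposited). Dppa4, a chromatin-associated gene of pluripotent cells, was at 16 and 17.7 FPKM in GV oocytes, at the floor in both 1-cell libraries and at 16.8 and 18.7 FPKM in the 2-cell libraries (log2 change after centring 3.31 ± 0.15 SE, limma adjusted p = 6.03e-06). Klf5, a transcription factor of the early blastocyst lineages, was at the floor in GV and 1-cell libraries and at 4.32 and 3.81 FPKM in the 2-cell libraries (centred log2 change 1.36). Id2, an inhibitor of helix-loop-helix factors, went from 1.36 and 1.44 to 5.99 and 7.04 FPKM (centred log2 change 1.95).

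The Obox family, oocyte- and embryo-specific homeobox genes, split into opposite movements. Obox3 was at the floor in both 1-cell libraries and at 38.9 and 44.2 FPKM in the 2-cell libraries (log2 change after centring 4.5 ± 0.43 SE, limma adjusted p = 1.92e-04). Obox6 went from the floor to 26.2 and 36.2 FPKM (log2 change after centring 4.08 ± 0.29 SE, limma adjusted p = 4.99e-05). Obox1 measured 406 and 273 FPKM in the 1-cell libraries and 11.9 and 11.2 FPKM in the 2-cell libraries (log2 change after centring −3.84 ± 0.29 SE, limma adjusted p = 7.10e-05), and Obox2 measured 586 and 337 FPKM in the 1-cell libraries and 8.07 and 7.89 FPKM in the 2-cell libraries (log2 change after centring −4.75 ± 0.25 SE, limma adjusted p = 1.12e-05). Obox5 fell from 698 and 458 to 169 and 120.2 FPKM and remained the most abundant member at the 2-cell stage (log2 change after centring −1.05 ± 0.31 SE, limma adjusted p = 0.0376). The centred call of Obox5 was lost without the first 1-cell, the second 1-cell or the second 2-cell library, with adjusted p-values of 0.18, 0.0696 and 0.166, and with quantile normalization (0.236). Fitted on the 4 WT libraries alone, Obox5 was called neither after centring (adjusted p = 0.186) nor as deposited (0.0699). Obox3 and Obox6 had their highest WT level at the 2-cell stage, and the other 3 members in GV oocytes, at 953 and 1071 FPKM for Obox1. Members of this family resemble each other in sequence, and reads may be shared between them. Since Obox1 and Obox3 moved in opposite directions, their promoters are compared, with bases identical in the alignment in capitals. Obox1 lies at chr7:15547007-15547306, plus strand, and Obox3 at chr7:15639728-15640027, minus strand, both in build GRCm38.p6 of RefSeq, printed 5′ to 3′.
Obox1: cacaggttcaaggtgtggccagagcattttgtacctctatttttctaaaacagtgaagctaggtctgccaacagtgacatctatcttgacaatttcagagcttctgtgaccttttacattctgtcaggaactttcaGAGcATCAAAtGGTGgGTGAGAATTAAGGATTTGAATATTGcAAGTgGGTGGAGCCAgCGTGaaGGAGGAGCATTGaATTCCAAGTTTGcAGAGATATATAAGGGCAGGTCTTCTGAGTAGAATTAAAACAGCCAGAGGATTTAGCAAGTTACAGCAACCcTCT
Obox3: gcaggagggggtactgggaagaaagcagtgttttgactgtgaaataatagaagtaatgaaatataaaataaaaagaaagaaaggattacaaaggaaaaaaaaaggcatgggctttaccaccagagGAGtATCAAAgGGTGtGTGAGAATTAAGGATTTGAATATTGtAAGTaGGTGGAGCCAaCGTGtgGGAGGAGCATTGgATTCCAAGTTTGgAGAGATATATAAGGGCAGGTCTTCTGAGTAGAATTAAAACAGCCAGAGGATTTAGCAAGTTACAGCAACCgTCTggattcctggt
Over 164 aligned bases, from base 137 to 300 of the Obox1 window and from base 126 to 289 of the Obox3 window, 153 were identical (93.3%). The windows differed upstream of this stretch.

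Loss of oocyte transcripts was broad within the stored maternal genes. Of 57 oocyte-specific and maternal-effect genes, 36 fell and 5 rose after centring (45 and 1 as deposited). Over all genes, 15.4% fell and 19.4% rose after centring (29% and 9.45% as deposited). The centred rises numbered 3 without either 1-cell library or the first 2-cell library and 1 when the 4 WT libraries were fitted alone, and the deposited rise was lost without the second 2-cell library. The list had a median centred change of −1.6 and a median level of 416 FPKM in GV oocytes, 90.2 in 1-cell and 8.21 in 2-cell embryos. Zar1, a maternal-effect RNA-binding gene, fell from 86.2 and 103 to 2.39 and 1.54 FPKM (log2 change after centring −4.24 ± 0.33 SE, limma adjusted p = 7.67e-05). H1foo, the oocyte linker histone, fell from 295 and 302 to 10.3 and 6.12 FPKM (log2 change after centring −4.18 ± 0.3 SE, limma adjusted p = 4.88e-05). Ooep and Padi6, both parts of the subcortical maternal complex, went from 119.9 and 88.6 to 4.1 and 5.04 FPKM and from 148 and 166 to 8.15 and 7.53 FPKM (centred log2 changes −3.38 and −3.28). Gdf9, an oocyte growth factor, went from 151 and 133 to 14.4 and 11.9 FPKM (centred log2 change −2.44). Nlrp4b went from 72.8 and 47.3 to 1.66 and 1.43 FPKM (centred log2 change −3.8). The oogenesin gene Oog4 went from 172 and 111 to 4.77 and 4.19 FPKM (centred log2 change −3.82). The F-box gene Fbxw28 went from 140.04 and 95.8 to 3.03 and 3.62 FPKM (centred log2 change −3.93). The 2 stages did not overlap for any of these genes, which the naming rule required of Zar1, H1foo, Oog4 and Fbxw28. Of the 5 rising members, Dppa5a went from 17.5 and 15.5 to 25.9 and 38.6 FPKM, far below its 1236 and 1476 FPKM in GV oocytes (centred log2 change 1.79).

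Falls among the 12 largest were not limited to oocyte-specific genes. E330021D16Rik, an oocyte-enriched gene of unknown role, went from 628 and 446 to 11.9 and 14.3 FPKM (log2 change after centring −4.34 ± 0.19 SE, limma adjusted p = 5.24e-06). A430033K04Rik, a zinc-finger gene, went from 62.3 and 49 FPKM to the floor in both 2-cell libraries, at least 55.6-fold lower as deposited. Dnajb4, a heat-shock co-chaperone, went from 132 and 86.6 to 3.23 and 3.06 FPKM (centred log2 change −3.87). Neil3, a DNA glycosylase, went from 66.5 and 41 to 1.32 and 1.06 FPKM (centred log2 change −3.81). Txnip, an inhibitor of thioredoxin, went from 88.2 and 49.2 to 1.84 and 1.75 FPKM (centred log2 change −3.81). Both libraries of each stage lay apart for all of these, which the rule that named them required. The most abundant transcripts of the 1-cell embryo were Zbed3, Bcl2l10, Oosp1, Pttg1 and Rfpl4. Bcl2l10, an anti-apoptotic BCL2 family gene of oocytes, fell from 1424 and 1128 to 149.7 and 107 FPKM (log2 change after centring −2.39 ± 0.34 SE, limma adjusted p = 0.00135). Rfpl4, an oocyte RING-finger gene, went from 1278 and 840.3 to 84.5 and 65.6 FPKM (log2 change after centring −2.86 ± 0.46 SE, limma adjusted p = 0.00244). Zbed3, a regulator of WNT signalling linked to the subcortical complex, measured 1386 and 1741 FPKM in the 1-cell libraries and 564 and 293 FPKM in the 2-cell libraries; it fell as deposited (log2 change as deposited −1.93 ± 0.38 SE, limma adjusted p = 0.00281, but 0.381 when the 4 WT libraries were fitted alone) but was not called after centring (centred log2 change −1.0, limma adjusted p = 0.203), except without the first 2-cell library (−1.55, adjusted p = 0.0373), without a common floor (0.00939) and among genes averaging 5 FPKM or more (0.0250).

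The most abundant transcripts of the 2-cell embryo were carried over or regained rather than absent before. Omt2b, an oocyte maturation gene, measured 945 and 642 FPKM in the 1-cell libraries and 629 and 702 FPKM in the 2-cell libraries. The related Omt2a measured 640.5 and 433 FPKM in the 1-cell libraries and 469 and 543 FPKM in the 2-cell libraries. Tlcd2, a membrane-lipid gene, measured 582 and 450.4 FPKM in the 1-cell libraries and 589 and 665 FPKM in the 2-cell libraries, and the stages did not overlap by a small margin. None of the 3 was called as deposited (log2 changes −0.23, −0.06 and 0.29). After centring Omt2a was called higher (log2 change after centring 0.87 ± 0.26 SE, limma adjusted p = 0.0407), a call lost without any 1 of the 4 libraries (adjusted p between 0.074 and 0.24), in the 4 WT libraries alone (0.312) and with quantile normalization (0.083). Gm20594, whose sequence is a nuclear copy of the mitochondrial 16S ribosomal RNA gene and can take reads from it, measured 775 and 646 FPKM in the 1-cell libraries and 642 and 923 FPKM in the 2-cell libraries, with overlapping stages. Among genes that rose as deposited, the highest 2-cell level outside the shared-sequence genes was that of Rpl41, a ribosomal protein of the large subunit, at 343 and 419 FPKM after 104 and 80.7 FPKM in the 1-cell libraries (log2 change as deposited 2.04 ± 0.37 SE, limma adjusted p = 0.00174). Polr2f, a subunit shared by the RNA polymerases, went from 78.2 and 64.4 to 97.5 and 131 FPKM (log2 change as deposited 0.66 ± 0.22 SE, limma adjusted p = 0.0372); the deposited call was lost without either 1-cell library or without the second 2-cell library, with an adjusted p of up to 0.234, and in the 4 WT libraries alone (0.153).

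Transcripts of the cytoplasmic ribosome rose almost as a block. Of 86 cytoplasmic ribosomal protein genes, 77 rose and 1 fell after centring, against 19.4% and 15.4% of all genes, with a median log2 change of 2.17; as deposited, 62 rose and 3 fell (1 without the first 1-cell or the first 2-cell library), with a median of 1.39. Their summed level was 1659 and 1301 FPKM in the 1-cell libraries and 2930.0 and 3518 FPKM in the 2-cell libraries, the reverse of the total of all genes. The median member stood at 316 FPKM in GV oocytes, 8.57 in 1-cell and 24.3 in 2-cell embryos, and 2 members exceeded their GV level at the 2-cell stage. A higher mean in GV oocytes than in 2-cell embryos was found in 7410 of the 8023 genes above the floor in at least 1 of the 4 libraries. Rpl23a measured 2.04 and 2.11 FPKM in the 1-cell libraries and 36 and 41.1 FPKM in the 2-cell libraries (log2 change after centring 4.36 ± 0.46 SE, limma adjusted p = 3.07e-04), after 461 and 559 FPKM in GV oocytes. Rpl9 went from 1.13 and 1.55 to 21.5 and 30.1 FPKM (centred log2 change 3.81). Rplp1 went from 19.1 and 17.2 to 109 and 117 FPKM (centred log2 change 3.47). Rps29 went from 22.2 and 18.2 to 71.1 and 119 FPKM (centred log2 change 3.04). Rps15a was the member that fell after centring, from 13.6 and 10.1 to 3.47 and 3.41 FPKM (log2 change after centring −0.72 ± 0.21 SE, limma adjusted p = 0.0315), a call lost without any 1 of the 4 libraries (adjusted p between 0.0692 and 0.157). Ribosomal protein genes have many near-identical processed copies in the mouse genome, so the value of a single member is uncertain.

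Genes that build the ribosome followed in part. Of 103 nucleolar and ribosome biogenesis genes, 53 rose and 13 fell after centring, while 26 rose and 25 fell as deposited. The shares of all genes were 19.4% and 15.4% after centring and 9.45% and 29% as deposited. With only genes of at least 5 FPKM on average kept, 39 members were tested and 20 called higher after centring. Nhp2, a protein of the H/ACA particles that modify ribosomal RNA, went from 2.5 and 1.93 to 15.1 and 23.2 FPKM (log2 change after centring 3.36 ± 0.13 SE, limma adjusted p = 2.21e-06). Polr1c, a subunit of RNA polymerases I and III, went from 1.55 and 1 to 13.3 and 14.3 FPKM (centred log2 change 2.96). Taf1d, a factor of RNA polymerase I initiation, went from 9.71 and 8.24 to 25.4 and 32.3 FPKM (centred log2 change 2.44). Rrp9, a U3 particle protein, went from the floor to 8.81 and 8.03 FPKM (centred log2 change 2.29). Riok1, a kinase of small subunit maturation, fell from 82.7 and 69.99 to 3.59 and 3.81 FPKM (centred log2 change −3.2). Npm1, nucleophosmin, went from 324 and 241 to 57.5 and 66.7 FPKM (centred log2 change −1.23). Both genes that fell were among the abundant members at the 1-cell stage. Of 64 translation initiation and elongation factors, 31 rose and 17 fell after centring (11 and 25 as deposited); the centred rises numbered 18 without the first and 17 without the second 1-cell library, and the deposited rises 7 without the second 2-cell library. Eif3j went from the floor to 8.69 and 6.8 FPKM (centred log2 change 2.18). Eif2b1, of the eIF2 exchange factor, went from 115 and 81.5 to 8.51 and 8.01 FPKM (centred log2 change −2.52). The oocyte cap-binding gene Eif4e1b went from 53.6 and 46.7 to 7.2 and 8.39 FPKM (centred log2 change −1.67).

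**Figure D3:**
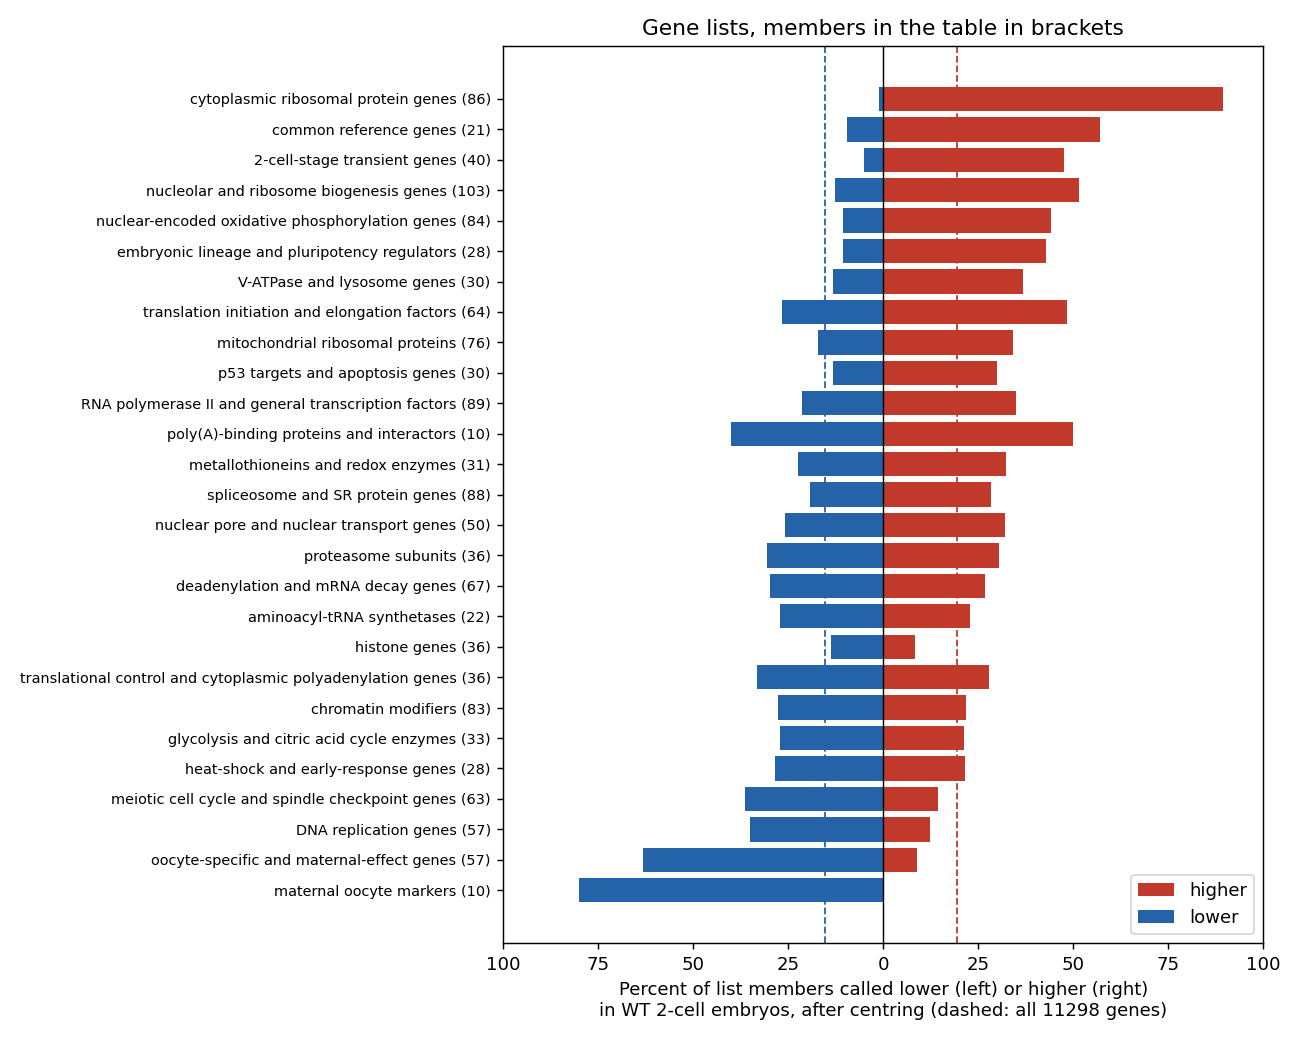
Percent of the members of each gene list called higher (right, red) or lower (left, blue) in WT 2-cell against WT 1-cell embryos after centring, with the number of members in the table in brackets and dashed lines at the shares of all 11298 genes (19.4% higher, 15.4% lower). Ribosomal protein genes stand at the top with 77 of 86 members higher, and the 10 maternal oocyte markers at the bottom with 8 lower; lists of under 10 genes are not drawn.

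Mitochondrial and protein-turnover genes were called in both directions. Of all genes, 19.4% rose and 15.4% fell after centring (9.45% and 29% as deposited). The median centred log2 change was 0.55 for oxidative phosphorylation genes, 0.03 for mitochondrial ribosomal protein genes and 0.08 for proteasome subunits. It was 0 over all genes. Of 84 nuclear-encoded oxidative phosphorylation genes, 37 rose and 9 fell after centring (15 and 28 as deposited). Atp5g1, a subunit of the ATP synthase ring, rose from 9.47 and 5.85 to 41.7 and 47 FPKM (log2 change after centring 3.28 ± 0.21 SE, limma adjusted p = 3.17e-05). Ndufa2, of complex I, went from 8.54 and 5.84 to 25 and 36.7 FPKM (centred log2 change 2.81). Ndufa10, also of complex I, went from 47.8 and 37.1 to 2.28 and 3.3 FPKM (centred log2 change −2.72). Of 76 mitochondrial ribosomal protein genes, 26 rose and 13 fell after centring (16 and 28 as deposited). Mrpl20 went from the floor to 7.47 and 10.3 FPKM and Mrpl12 from 2.35 and 1.69 to 8.17 and 8.28 FPKM (centred log2 changes 2.35 and 2.26). Among 36 proteasome subunits 11 rose and 11 fell after centring (6 and 16 as deposited); 7 were called higher without either 1-cell library, and 7 lower without the second 2-cell library. The deposited rises numbered 3 without the second 1-cell or the second 2-cell library. The catalytic-ring subunits Psmb1 and Psmb5 rose, from 4.32 and 3.21 to 12.8 and 19.97 FPKM and from 1 and 1.13 to 8.19 and 11.9 FPKM (centred log2 changes 2.64 and 2.51). Psma7, of the outer ring, went from 121 and 101 to 4.23 and 6.4 FPKM (log2 change after centring −3.31 ± 0.2 SE, limma adjusted p = 2.06e-05). Psmd1, of the regulatory particle, went from 26.3 and 18.2 to 1.4 and 1.9 FPKM (centred log2 change −2.37). No subunit of the proteasome had a higher mean in 2-cell embryos than in GV oocytes. The GV mean was the higher one in 7410 of the 8023 genes above the floor in at least 1 of the 4 libraries. In central metabolism, 7 of 33 glycolysis and citric acid cycle genes rose and 9 fell after centring (5 and 13 as deposited). Mdh2, the mitochondrial malate dehydrogenase, rose from 1.86 and 1.2 to 16.3 and 14.4 FPKM (centred log2 change 3.11). Ldhb, the lactate dehydrogenase subunit abundant in oocytes, went from 602 and 438 to 42.2 and 35.1 FPKM (log2 change after centring −2.79 ± 0.28 SE, limma adjusted p = 2.56e-04).

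**Figure D4:**
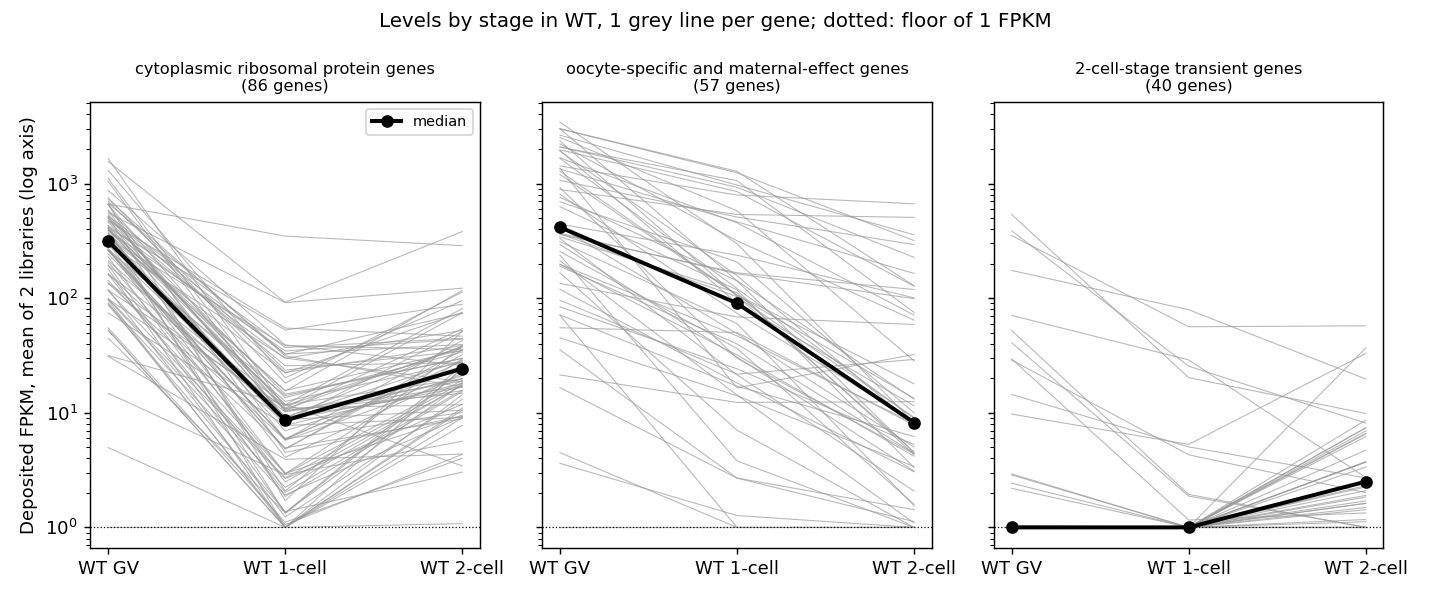
Deposited FPKM (log axis, mean of 2 libraries) at the WT GV, 1-cell and 2-cell stages for 86 ribosomal protein genes, 57 oocyte-specific and maternal-effect genes and 40 transient genes of the 2-cell stage, with 1 grey line per gene, the median in black and a dotted line at the floor. The ribosomal median drops from 316 to 8.57 FPKM and returns to 24.3, whereas the oocyte median keeps falling, from 416 to 90.2 and 8.21 FPKM.

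Among cell cycle and DNA replication genes, falls outnumbered rises on both scales. Genes as a whole showed more falls as deposited only: 9.45% rose and 29% fell. After centring, 19.4% of all genes rose and 15.4% fell. Of 63 meiotic cell cycle and spindle checkpoint genes, 9 rose and 23 fell after centring (6 and 41 as deposited). Pttg1, the securin that holds back chromosome separation, fell from 1427 and 1013 to 99 and 105 FPKM (log2 change after centring −2.62 ± 0.28 SE, limma adjusted p = 3.28e-04). Aurkc, the Aurora kinase of meiosis, fell from 151 and 103 to 9.33 and 10.9 FPKM (centred log2 change −2.62). Ccnb2, a B-type cyclin, went from 51.5 and 37.4 to 4.43 and 5.28 FPKM (centred log2 change −2.09). The checkpoint kinase Bub1b went from 22 and 18.6 FPKM to the floor in both 2-cell libraries (centred log2 change −2.61). Among the rising members, Ccne1, the cyclin of S-phase entry, went from the floor to 18.7 and 19.3 FPKM (log2 change after centring 3.4 ± 0.22 SE, limma adjusted p = 3.09e-05). Cdc25c, a phosphatase of mitotic entry, went from the floor to 6.92 and 6.57 FPKM (centred log2 change 2.0). Cdk1 went from 5.93 and 4.23 to 12.4 and 12.9 FPKM (centred log2 change 1.99). Ube2c, a ubiquitin-conjugating enzyme of mitotic exit, went from 16.6 and 15.9 to 41.1 and 39.5 FPKM (centred log2 change 2.15). Of 57 DNA replication genes, 7 rose and 20 fell after centring (2 and 32 as deposited, with 1 rise as deposited without any 1 of the 4 libraries). Rpa3, the small subunit of the single-strand-binding complex, fell from 145 and 85.9 to 14 and 14.7 FPKM (centred log2 change −1.98). Mcm4, of the replicative helicase, went from 13.9 and 10.8 to 1.41 and 1.43 FPKM (centred log2 change −1.73). Rpa2, of the same complex as Rpa3, went from 2.62 and 2.11 to 4.76 and 5.59 FPKM (centred log2 change 1.59). The primase subunit Prim1 went from 1.92 and 1 to 3.64 and 4.63 FPKM (centred log2 change 1.37). None of the 57 genes had a higher mean in 2-cell embryos than in GV oocytes. Among the 8023 genes above the floor in at least 1 of the 4 libraries, 7410 had a higher mean in GV oocytes.

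Chromatin genes were called in both directions, as were genes as a whole (19.4% rose and 15.4% fell after centring, 9.45% and 29% as deposited). Of 83 chromatin modifiers, 18 rose and 23 fell after centring (7 and 37 as deposited, with 4 rises as deposited without the second 1-cell library). Dnmt1, the maintenance DNA methyltransferase, fell from 24.1 and 20.9 to 1.13 and 1.13 FPKM (log2 change after centring −2.71 ± 0.15 SE, limma adjusted p = 1.68e-05). Uhrf1, which recruits it to replicating DNA, went from 36.4 and 39.6 to 2.02 and 1.91 FPKM (centred log2 change −2.94). Tet3, the dioxygenase that oxidizes methylated cytosine in the zygote, went from 26.3 and 26.5 to 2.11 and 1.9 FPKM (centred log2 change −2.42). Hdac1, a histone deacetylase, rose from the floor to 6.09 and 6.58 FPKM (log2 change after centring 1.92 ± 0.04 SE, limma adjusted p = 9.41e-08). Kdm5b, a histone demethylase, went from the floor to 4.98 and 5.73 FPKM (centred log2 change 1.7). Of 36 histone genes, 17 never left the floor in these libraries; 3 rose and 5 fell after centring (3 and 7 as deposited), with 3 centred falls without the first 1-cell or the second 2-cell library. Most replication-dependent histone transcripts lack a poly(A) tail, and oligo-dT captures them poorly. The polyadenylated variants H2afz and H2afv rose, from 14.1 and 9.99 to 87.9 and 99.4 FPKM (log2 change after centring 3.76 ± 0.37 SE, limma adjusted p = 2.23e-04) and from 2.6 and 1.77 to 12.5 and 13.5 FPKM (centred log2 change 2.84).

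Genes of mRNA decay and poly(A) binding were called in both directions after centring, and falls prevailed as deposited. The same held over all genes, of which 19.4% rose and 15.4% fell after centring, and 9.45% rose and 29% fell as deposited. Of 67 deadenylation and mRNA decay genes, 18 rose and 20 fell after centring (2 and 29 as deposited), and 10 rose without either of the 1-cell libraries; the deposited rises numbered 5 without the first 2-cell library and 1 without any other of the 4. Btg4, the oocyte adaptor of the CCR4-NOT deadenylase, went from 1084 and 694 to 256 and 199.8 FPKM; it fell as deposited (log2 change as deposited −1.93 ± 0.23 SE, limma adjusted p = 1.73e-04, but 0.133 when the 4 WT libraries were fitted alone), and its centred fall (log2 change after centring −1.01 ± 0.32 SE, limma adjusted p = 0.0466) was lost without the first 1-cell, the second 1-cell or the second 2-cell library (adjusted p = 0.231, 0.0842 and 0.115), in the 4 WT libraries alone (0.263) and with quantile normalization (0.230). Dcp1a, of the decapping complex, fell from 38.7 and 27.8 to 2.65 and 2.09 FPKM (centred log2 change −2.54). Lsm14b, an oocyte RNA-granule protein, went from 15.7 and 16.2 to 1.28 and 1.37 FPKM (centred log2 change −2.15). The nuclear exonuclease Xrn2 went from 15.7 and 10.9 to 1.12 and 1.33 FPKM (centred log2 change −1.97). Cnot4 went from 16.5 and 13.9 to 1.93 and 2.28 FPKM (centred log2 change −1.62). Tob1, another deadenylase adaptor, rose from the floor to 3.44 and 4.12 FPKM (centred log2 change 1.27). Of 10 poly(A)-binding proteins and interactors, 5 rose and 4 fell after centring (2 and 4 as deposited). The centred rises numbered 3 without the second 1-cell library, the centred falls 2 without either 1-cell library or the first 2-cell library and 2 when the 4 WT libraries were fitted alone, and the deposited rises 1 without any 1 of the 4 libraries. Pabpc1, the general cytoplasmic form, rose from the floor to 8.08 and 12 FPKM (log2 change after centring 2.5 ± 0.19 SE, limma adjusted p = 7.03e-05). Pabpn1, the nuclear form, went from 14.6 and 15.8 to 26.5 and 28.7 FPKM (centred log2 change 1.7). Pabpc1l, the oocyte form, fell from 8.53 and 8.69 FPKM to the floor (log2 change after centring −1.49 ± 0.31 SE, limma adjusted p = 0.00792; adjusted p = 0.0506 without the second 1-cell library), and Pabpn1l fell as given above. The oocyte forms and the general forms moved in opposite directions on the centred scale. Dazl, a germ-cell activator of translation, fell from 122 and 84 to 8.68 and 9.56 FPKM (centred log2 change −2.45).

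The remaining lists held members that moved in both directions, as did genes as a whole (19.4% rose and 15.4% fell after centring, 9.45% and 29% as deposited). Of 89 RNA polymerase II and general transcription factor genes, 31 rose and 19 fell after centring (12 and 41 as deposited), the falls numbering 12 without the second 2-cell library. Polr2h, a shared polymerase subunit, rose from 4.56 and 3.26 to 17.6 and 26.9 FPKM (centred log2 change 3.03). Med29, of the Mediator, went from the floor to 9.48 and 9.85 FPKM (centred log2 change 2.48), while the initiation factor Gtf2b fell from 130.4 and 93.4 to 9.79 and 9.21 FPKM (centred log2 change −2.52). Of 88 spliceosome and SR protein genes, 25 rose and 17 fell (15 and 43 as deposited); Snrpc and Snrpd2 rose from 3.68 and 3.69 to 43.5 and 31.7 FPKM and from 1.92 and 1 to 17.9 and 24.9 FPKM (centred log2 changes 3.83 and 3.55). Snrpb2 went from 126 and 100.3 to 7.36 and 8.72 FPKM (centred log2 change −2.77). The values of Snrpc carry the limit given above for the shared stretch. Among 31 metallothionein and redox genes, 10 rose and 7 fell (9 and 8 as deposited), the falls numbering 4 without the first 1-cell or the second 2-cell library. Gpx4 and Gpx1, glutathione peroxidases, rose from 1.89 and 1.46 to 17.1 and 13.3 FPKM and from 2.11 and 3.04 to 17.1 and 17.4 FPKM (centred log2 changes 3.09 and 3.06), and the peroxiredoxin Prdx1 and superoxide dismutase Sod1 fell from 318 and 216 to 44.1 and 32.9 FPKM and from 155 and 123 to 31 and 41.7 FPKM (centred log2 changes −1.83 and −1.0). Of 30 V-ATPase and lysosome genes, 11 rose and 4 fell (6 and 9 as deposited), with 7 rises without the second 1-cell library and 2 falls without the first 1-cell or the first 2-cell library. The protease gene Ctsl went from the floor to 30.2 and 43.5 FPKM (log2 change after centring 4.31 ± 0.33 SE, limma adjusted p = 7.26e-05). Of 28 heat-shock and early-response genes, 6 rose and 8 fell (5 and 10 as deposited); the deposited rises numbered 1 without the second 2-cell library and 3 without any other of the 4. Hspb1 went from 4.39 and 3.58 to 10.7 and 11 FPKM (centred log2 change 2.04). Hsp90aa1 went from 293 and 258 to 18.5 and 24.1 FPKM (centred log2 change −2.73). Of 30 p53 targets and apoptosis genes, 9 rose and 4 fell (5 and 7 as deposited), Cdkn1a, the p21 cell-cycle inhibitor, going from the floor to 2.99 and 4.2 FPKM (centred log2 change 1.2) and the survival gene Mcl1 from the floor to 3.09 and 3.8 FPKM (centred log2 change 1.16). Nuclear pore and transport genes gave 16 rises and 13 falls among 50 (4 and 20 as deposited, with 2 deposited rises without the first 1-cell or the second 2-cell library), with the importin gene Kpna1 rising from the floor to 5.9 and 5.43 FPKM (centred log2 change 1.78). Nup37 went from 73.1 and 42.7 to 3.6 and 4.04 FPKM (centred log2 change −2.73). Translational control and cytoplasmic polyadenylation genes gave 10 rises and 12 falls among 36 (2 and 18 as deposited, with 1 rise as deposited without any 1 of the 4 libraries). Aminoacyl-tRNA synthetases gave 5 rises and 6 falls among 22 (1 and 14 as deposited), and the deposited falls numbered 8 without the first 1-cell or the first 2-cell library and 9 without the second 2-cell library. Common reference genes gave 12 rises and 2 falls among 21 (10 and 6 as deposited, with 3 deposited falls without the first 1-cell or the first 2-cell library), with Ppia going from 18.1 and 12.9 to 35.6 and 55.3 FPKM and Ywhaz from 214 and 169.7 to 42.8 and 39.6 FPKM (centred log2 changes 2.37 and −1.27).

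The KO embryos passed the same interval in libraries of their own, so the WT change could be set against the KO change with no shared library. After centring, 1557 genes rose (13.8%) and 1355 fell (12%) in KO embryos. Of the 2194 genes higher in WT, 723 were also called higher in KO and 116 lower; of the 1737 lower in WT, 905 were also lower in KO and 102 higher. The median change of the 940 genes that rose at least 2-fold in WT was 1.53 in WT and 0.22 in KO, and that of the 895 falling genes was −1.45 in WT and −0.93 in KO. These genes were chosen by their WT change, which inflates the WT medians. The difference itself, WT change minus KO change, was called higher for 1458 genes (12.9%) and lower for 1261 (11.2%). This split moved with the scaling: 1746 higher and 646 lower before the authors' factor, 1696 and 804 with centring on genes above 5 FPKM, and 2051 and 3587 with quantile normalization. Of the genes higher in WT, 1216 had a higher and 131 a lower difference, and of those lower in WT, 656 had a lower and 56 a higher difference. The WT change is part of the difference, so selection by the WT call tilts these counts in its direction. KO 1-cell libraries stood higher than WT on the deposited scale, and the difference as deposited was called higher for 4028 genes (35.7%) and lower for 27 (0.239%).

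The largest differences were sought only among genes also called in WT after centring, so genes that changed in KO alone could not be named. Those described here, except Vaultrc5, rose in WT and stayed low or fell in KO. Gm11517 was at 1 and 1 FPKM in the KO 1-cell and 1.63 and 1 FPKM in the KO 2-cell libraries (WT change minus KO change 4.54 ± 0.2 SE, limma adjusted p = 8.90e-06). Cd63, a tetraspanin of late endosomes, went from the floor to 29.4 and 47.9 FPKM in WT and was at 1 and 1.58 FPKM in the KO 2-cell libraries (WT change minus KO change 4.14 ± 0.25 SE, limma adjusted p = 4.72e-05). Snrpc, a U1 particle protein, went from 18.4 and 20.3 FPKM to 3.76 and 1.63 FPKM in KO (WT change minus KO change 4.43 ± 0.45 SE, limma adjusted p = 5.99e-04). Psmb1 went from 72 and 75.5 to 3.73 and 5.93 FPKM (WT change minus KO change 4.26 ± 0.33 SE, limma adjusted p = 1.56e-04). Rpl18 went from 31.6 and 37 to 5.73 and 3.82 FPKM (WT change minus KO change 3.88 ± 0.24 SE, limma adjusted p = 5.34e-05). Of these, Psmb1, Rpl18 and Snrpc also differed at the start, being higher in both KO than in both WT 1-cell libraries. Snrpc also holds 108 bases of the shared stretch described above, and the part of this in its values was not tested. Nme2 was at 3.32 and 4.08 FPKM and then at 3.95 and 2.81 FPKM in KO (WT change minus KO change 3.86 ± 0.2 SE, limma adjusted p = 1.89e-05). Vaultrc5, a vault RNA gene, was the opposite case: it went from 26.4 and 19.2 to 4.73 and 5.3 FPKM in WT and from 26.3 and 12.9 to 40.5 and 48.2 FPKM in KO (WT change minus KO change −4.4 ± 0.49 SE, limma adjusted p = 9.10e-04). Its WT fall after centring (log2 change after centring −1.13 ± 0.35 SE, limma adjusted p = 0.0438) was lost without any 1 of the 4 libraries (adjusted p between 0.108 and 0.167).

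**Figure D5:**
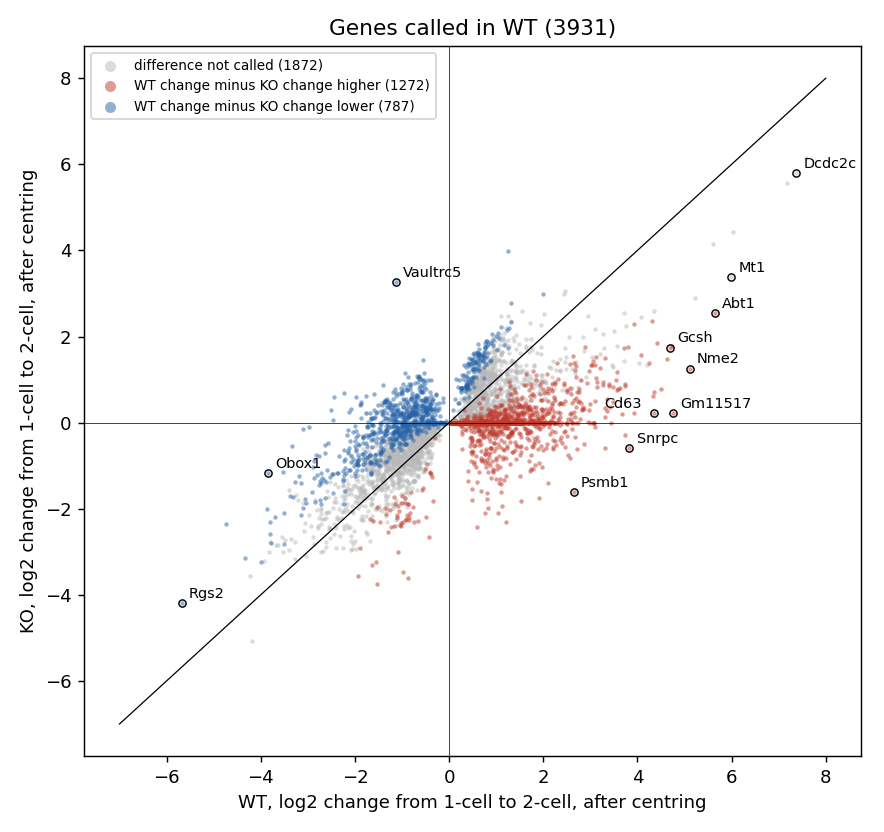
Log2 change from the 1-cell to the 2-cell stage after centring in WT (x axis) and KO (y axis) embryos for the 3931 genes called in WT, with colour where the difference between genotypes was called (1272 higher, 787 lower, 1872 not called) and a line of equal change. Genes such as Gm11517, Cd63 and Snrpc lie to the right near a KO change of 0, and Dcdc2c and Mt1 lie nearer the line with no called difference. The genes drawn were selected by their WT change, which is part of the difference.

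Mt1 and Mt2 were not called in this comparison. Mt1 was at the floor in both KO 1-cell libraries and at 41.1 and 6.61 FPKM in the KO 2-cell libraries, and Mt2 went from the floor to 51.3 and 16.4 FPKM. The 2 KO 2-cell libraries lay far apart for both genes. The difference for Mt1 was 2.61 ± 0.96 SE (limma adjusted p = 0.103); it passed without the first KO 2-cell library (3.85, adjusted p = 5.29e-05) and without the second (1.38, adjusted p = 0.00446). Mt2 passed without the first (2.21, adjusted p = 0.000816). Over all genes, 12.9% had a higher and 11.2% a lower difference, and 13.8% rose and 12% fell in KO. By list, 46 of 86 ribosomal protein genes had a higher and 0 a lower difference, with 31 rising and 5 falling in KO against 77 and 1 in WT. Nucleolar and ribosome biogenesis genes gave 52 higher and 4 lower differences, with 8 rising and 28 falling in KO. Proteasome subunits gave 19 higher and 2 lower differences, and 26 of 36 fell in KO. Transient genes of the 2-cell stage gave 17 higher and 1 lower difference, and 2 of 40 rose in KO; Pramel7, for example, was at 1.28 and 1 FPKM in the KO 2-cell libraries. Obox3, of the Obox list, was at 4.38 and 1 FPKM there. Oocyte-specific and maternal-effect genes gave 13 lower and 2 higher differences, and 26 of 57 fell in KO.

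Annotated features that the test did not use were compared as descriptions. The longest coding transcript of a gene in GENCODE M21 had a median of 1315 bases among the genes at least 4-fold higher after centring, 2074 bases among those at least 4-fold lower and 2887 bases among genes above the floor in at least 1 of the 4 libraries. The promoter comparison is void for the 264 genes at least 4-fold higher, because 76.9% of them were in the RefSeq promoter table. Among the 195 genes at least 4-fold lower (86.2% matched), the median GC content of the 300-base promoter was 57.0%, and among the 87 genes that rose at least 2-fold from the floor at both earlier stages (81.6% matched) it was 52.7%, against 60.7% for genes above the floor. The median of all promoters was 52.7% as well. The letters GGGCGG, a GC-box core, were present on either strand in 35.2% of promoters of the 87 genes, 47.0% of those of the lower genes and 64.5% of those of genes above the floor (35.9% of all promoters). TAATCC, a homeodomain core, was present in 14.1%, 4.76% and 5.78% (7.16% of all promoters), which for the 87 genes is 10 of 71 promoters. TATAAA was present in 9.86%, 7.14% and 7.32%, CCAAT in 43.7%, 38.7% and 40.8%, and AAGGTCA in 4.23%, 5.36% and 3.20%. Among all promoters the shares were 14.2% for TATAAA, 37.9% for CCAAT and 4.66% for AAGGTCA. A match describes the letters and no binding.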

How the data were processed

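Polyadenylated RNA of pools of 10 oocytes or embryos was measured by Smart-seq2. The authors deposited 1 table of FPKM values with a minimum of 1 FPKM. TopHat2 2.1.1, Cufflinks 2.2.1 and mm9 are named in the submitters' processing notes, and the role of each is not given in the sources used here. In each embryo library, 100% of the deposited FPKM values above the floor were 6-digit values times 1 library factor, to within 0.01 of the last digit. The table ran alphabetically from 0610007C21Rik to Zc3h14 with 11298 complete entries. An incomplete last entry was left out, and genes later in the alphabet were not analysed here. It held 0 ERCC spike-in and 0 mitochondrially encoded entries. FPKM carry no read counts, so depth is unknown.

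The test was limma (3.58.1, in R 4.3.3) on log2(FPKM + 1), checked on simulated data, with the 12 libraries as 6 groups and an intensity trend. The added 1 understates the change of low genes. Two-sided p-values were Benjamini-Hochberg adjusted over the genes of each contrast, with calls at an adjusted p under 0.05. For the centred scale each library was divided by its median over the centring genes and returned to the mean level of the 4 WT embryo libraries. Every value below the highest scaled floor, 1.57, which came from a KO 2-cell library, was then set to it.

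Named genes were the 3 markers, Pabpn1l and Btg4, and the 12 largest centred changes each way among called genes with non-overlapping stages and a mean of at least 20 FPKM in the higher stage. To these were added up to 4 leading members each way of each list, the 5 most abundant genes of each stage, the 10 most abundant genes higher as deposited, and the 8 largest differences between WT and KO changes among genes called in both. Some genes that the rule names are not reported here, and Mt4 was added after its values were seen. Members and lists were chosen with earlier results of these data known. Promoters were matched by symbol for 9041 of the table's genes. Alternatives comprised other pseudocounts, filters, scalings and fits, and leaving out single libraries.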

Additional observations from a re-analysis of the deposited data

Results flagged for a closer look

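Among 31 genes for which the change from the 1-cell to the 2-cell stage was set against that of KO embryos, 19 had a difference between the genotypes past the threshold of limma's interaction test after centring. Some of the 31 were named for the size of this difference and others for the size of their WT change, which is part of it. Their count is therefore a description. Over all genes the difference was called higher for 12.9% and lower for 11.2%. The log2 difference, WT change minus KO change, was above 0 for 9 genes: it was 4.54 for Gm11517, 4.43 for Snrpc, 4.26 for Psmb1, 4.14 for Cd63, 3.88 for Rpl18, 3.86 for Nme2, 3.10 for Abt1, 2.96 for Gcsh and 2.22 for Pramel7. It was below 0 for 10 genes: −4.40 for Vaultrc5, −2.66 for Obox1, −2.40 for Obox2, −2.39 for Pabpn1l, −1.86 for Dnajb4, −1.50 for Txnip, −1.49 for Rgs2, −1.23 for Neil3, −1.19 for E330021D16Rik and −0.75 for A430033K04Rik. For Abt1, the call was lost when only the 8 embryo libraries were fitted (adjusted p = 0.0614) and without 1 library in 3 cases (adjusted p between 0.0505 and 0.0532). The call of A430033K04Rik was lost under 13 alternatives, Txnip lost its call under 6, E330021D16Rik under 5 and Neil3 under 1. Pabpn1l is the gene targeted in the KO, and it measured 2.57 and 4.55 FPKM in the KO 1-cell libraries against 16.4 and 12.2 FPKM in WT. The second KO 2-cell library lay below the first for Mt1, Mt2, Abt1 and Dcdc2c, and the part of this spread in the differences was not tested.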

How the results depend on the processing

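Leaving out single libraries gave 806 to 1123 rises and 2387 to 3151 falls as deposited, 1765 to 2243 rises and 1390 to 1572 falls after centring, and 1177 to 1670 higher and 878 to 1378 lower differences between WT and KO changes; where it left a group with 1 library, that library was assumed to vary like the other groups. Restricting the tests to the 2739 genes averaging 5 FPKM or more gave 322 rises and 1780 falls as deposited, and 835 rises and 1162 falls after centring. It gave 578 higher and 922 lower differences. Fewer genes were tested there. Falls then outnumbered rises after centring, and lower differences outnumbered higher ones, the reverse of the main counts. Without a common floor, 6997 genes were called higher after centring and 4905 differences lower, since each library then kept a floor of its own and genes at the floor received unequal values. Lower differences numbered 804 with centring on genes above 5 FPKM, 646 before the authors' factor and 3587 with quantile normalization, and the cause was not tested. The other alternatives kept each count within 1.5 times of the value reported.

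With the replicate number as a block, 1044 genes rose and 3138 fell as deposited, 2120 and 1677 after centring, and 1374 and 1115 differences were called. The replicate deviations of the 2 WT stages correlated at r = 0.022 as deposited and 0.016 after centring across genes, and those of the 2 KO stages at 0.201 after centring. With 2 libraries a group and no label tying the numbers to a shared animal, litter or day, the libraries are taken to share only a number. The block ended the centred calls of Obox5 (adjusted p = 0.0603), Btg4 (0.0727), Omt2a (0.0743) and Vaultrc5 (0.0565) and the called difference of A430033K04Rik (0.0753), and left 2 falls after centring among the poly(A)-binding proteins and 1 rise as deposited among the mRNA decay genes. Among the 127 genes named, 1965 of 2015 recomputed centred changes and 1352 of 1380 deposited changes kept their direction and side of the threshold. The direction of uncalled deposited changes turned in 3 genes on leaving out a library: Omt2b (−0.51 to 0.049), Omt2a (−0.34 to 0.22) and Gm20594 (−0.14 to 0.38), with single values of 0.045 for Omt2a without the first 2-cell library and −0.011 for Gm20594 without the second 1-cell library. Of 124 counts of list members called, 51 moved by over 1.5 times when only genes averaging 5 FPKM or more were tested, 17 when the 4 WT libraries were fitted alone, and 15 to 21 on leaving out a library; of the 62 centred counts, 18 moved without a common floor and 9 with quantile normalization. The floor hides all levels under 1 FPKM, and with 2 libraries a group the spread of a gene rests mainly on the moderated variance. Small changes from the floor can therefore be called. Dhcr7 was at the floor in both 1-cell libraries and at 1.21 and 1.42 FPKM in the 2-cell libraries. It was called higher after centring with a log2 change of 0.13 (limma adjusted p = 2.72e-08). The part of the floor in the numbers of calls was not tested.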

Other observations

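Presence and absence at the floor gave a further view of the passage. Above the floor in both 1-cell libraries and at it in both 2-cell libraries were 1304 genes, and 850 genes showed the opposite pattern on the deposited scale. The floor of 1 FPKM lies after the authors' factor, which was 2.00 times as high in the 1-cell libraries. Leaving the floor at the 2-cell stage thus took a higher FPKM before the factor, and the part of this in the 2 counts was not tested. Of these 850 genes, 223 were also at the floor in both GV libraries, and were therefore seen in WT at the 2-cell stage alone among the 3 stages measured. The 10 most abundant transcripts made up 9.86% of the summed FPKM of 1-cell embryos and 8.82% of that of 2-cell embryos. After centring, the median change was 0 for spliceosome, chromatin and RNA polymerase II genes, with members called in both directions in each.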
